A study of Bos taurus with 10 samples.

Results

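Cytosolic ribosomal proteins were followed across 5 tissues taken from cattle at the peak of lactation: liver, mammary gland and 3 adipose depots (mesenteric, omental and subcutaneous). The genes were chosen by name only: current symbols that start with RPL or RPS and a digit, with RPLP or with RPSA, without the RPS6K kinases. The array annotation lists 48 such genes, and 45 of them, 28 of the large and 17 of the small subunit, lay on an element whose name could be used, out of 4366 named genes in all. RPL30, RPL5 and RPS12 had no usable element. All 45 genes had a value on all 10 arrays, 36 of them from 1 element and 9 from 2. RPL7L1, a paralogue of RPL7 that acts in ribosome assembly, and RPS19BP1, a nucleolar binding partner of RPS19, meet the naming rule but are no proteins of the mature ribosome, and they are described apart where they matter.

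Each tissue stood for 1 RNA sample, hybridised on 2 two-colour cDNA arrays, once in Cy3 and once in Cy5, against a standard mixed from tissues. The labels name a cow at peak lactation, give no age, breed or number of animals, and describe no treatment. With 1 sample a tissue there is no spread between animals and no p-value. Values are log2 ratios, tissue over reference, with the median of each array set to 0, and ± is the distance of either dye orientation from their mean. After centring, 0 is the median spot of the array, so below, near or above the reference is meant relative to that spot. A difference is said to pass when it reached 2-fold (1 log2 unit) and had the same sign in both orientations. Visceral adipose tissue means the average of the mesenteric and omental samples.

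A ribosome is a machine of RNA and many small proteins, nearly all present in a single copy per particle and encoded by a single active gene. The large subunit forms peptide bonds and holds the tunnel through which the new chain leaves, and the small subunit reads the messenger. Ribosomal protein messages are short, abundant and share a pyrimidine-rich start, the 5′ terminal oligopyrimidine or TOP motif, by which growth signals regulate their translation together. The lactating mammary gland, which makes milk proteins, and the liver, which makes plasma proteins, depend on it for secretion.

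The sign of all values rests on a likely, not a stated, direction of the ratio. Of the measured hepatocyte markers 5 of 6 passed as higher in liver than in mammary gland (median 4.80), and all 4 mammary secretory markers as higher in mammary gland (median -2.85), under this direction only. With the opposite direction each difference given here changes sign. An array held 15984 to 16253 deposited spot values. The adipocyte list held CAV1, CEBPA, CIDEA, LIPE and PNPLA2. Its median was 1.45 in mesenteric, 1.63 in omental and 0.11 in subcutaneous adipose tissue, beside 0.34 in liver and 0.04 in mammary gland. By this median the subcutaneous sample did not stand above liver. The gene names come from a rebuilt print layout. A search for that layout with every ribosomal protein gene left out kept 1279 of 1289 pairs and placed 100% of the identifiers alike. This shows only that the family did not set the layout, not that each element is rightly named.

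Ribosomal protein messages were lower in liver and mammary gland than in the adipose depots, and this held for most members of both subunits. The median of the 45 genes was -0.91 in liver, -0.96 in mammary gland, -0.21 in mesenteric, -0.44 in omental and -0.35 in subcutaneous adipose tissue. Without centring these medians were -0.57, -0.40, 0.02, 0.10 and 0.67 in the same order. Those of all named genes were then 0.29, 0.49, 0.18, 0.50 and 0.99. Between 37 and 44 of the 45 genes lay below 0 in a tissue, where 52.8% to 54.8% of all named genes did. In liver 16 genes were at least 2-fold below the reference after centring (9.76% of all named genes), and in mammary gland 21 (10.1%). In mesenteric adipose tissue only RPL28 was (6.39% of all genes), in omental adipose tissue again only RPL28 (5.22%), and in subcutaneous adipose tissue none (4.78%).

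**Figure D1:**
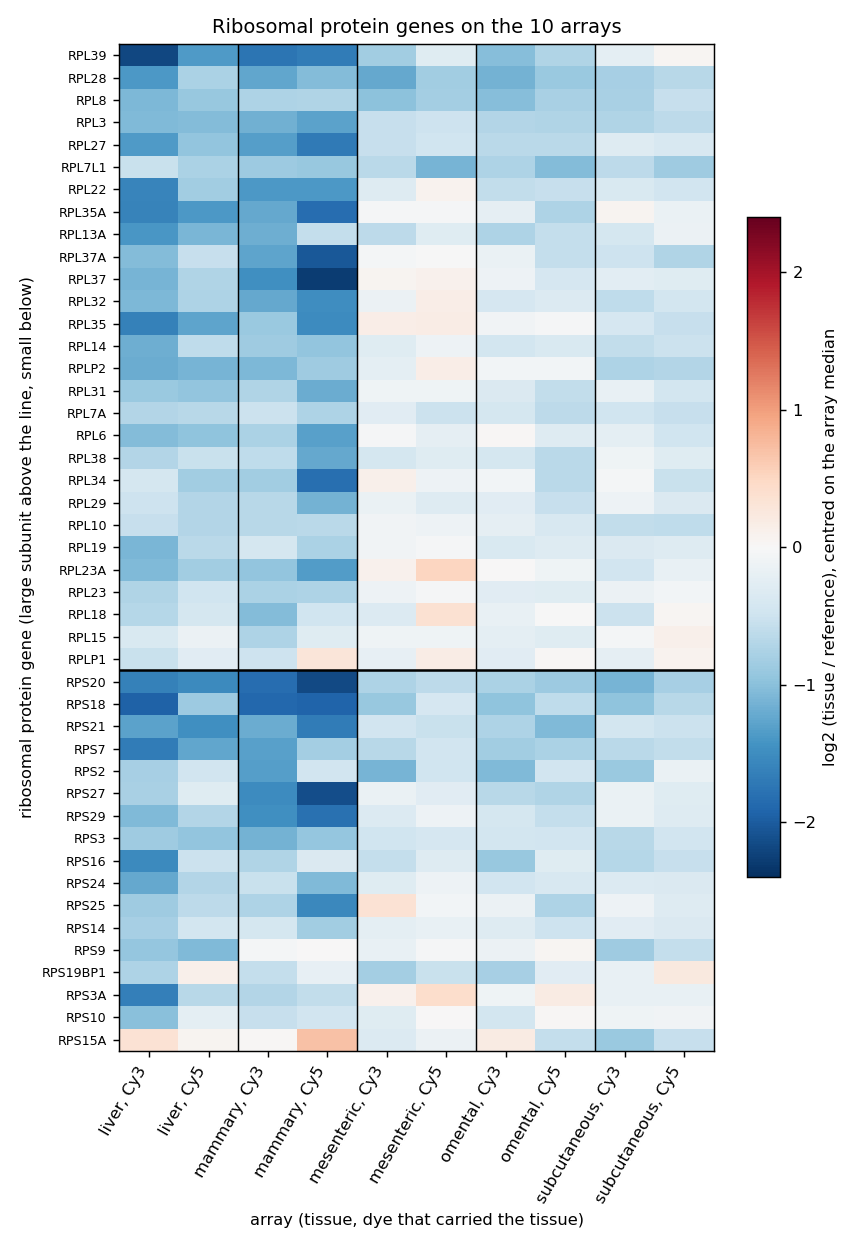
Heat map of the centred log2 ratio of tissue over reference for 45 ribosomal protein genes (rows, large subunit above the black line, small subunit below, each sorted by mean) on 10 arrays (columns, grouped by tissue, dye of the tissue named). Blue is below the median spot of the array and red above. The 4 liver and mammary columns are darker blue than the 6 adipose columns in most rows. RPS15A in the bottom row is an exception.

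In 35 of the 45 genes both liver and mammary gland lay below all 3 depots, an order found in 19.7% of all named genes. The 10 genes outside it were RPL15, RPL7L1, RPL8, RPLP1, RPS15A, RPS16, RPS19BP1, RPS2, RPS27 and RPS9. Read by array, all 4 liver and mammary arrays lay below all 6 adipose arrays for 21 genes (8.13% of all named genes), a criterion set after the values were seen. Without centring the order by tissue held for 35 genes (16.9% of all genes) and the order by array for 1, and after quantile normalisation for 28 and 10. The mesenteric sample was the highest of the 5 tissues in 30 genes (16.2% of all genes), the subcutaneous in 12 (26.0%) and the omental in 0 (9.94%). Without centring the mesenteric sample was the highest in 0, since the arrays were deposited with unlike medians. The mammary gland was the lowest in 27 genes (26.8% of all genes) and the liver in 15 (29.7%). The subcutaneous and liver counts are thus near those shares.

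The members followed each other closely. Over the 5 tissues, the median correlation between different ribosomal protein genes was 0.78 over 990 pairs, against -0.00 over all pairs of named genes, 0.15 among 38 mitochondrial ribosomal proteins and 0.54 among 22 proteasome genes. These correlations describe 5 samples that all genes share. In 33 genes the profile correlated at 0.8 or more with the median of the other members, in 6 it lay between 0.5 and 0.8, and in 6 below 0.5. The spread between members within a tissue was 0.24 (SD, subcutaneous) to 0.51 (mammary gland), against 0.66 to 0.93 between all named genes. Duplicate spots of member elements lay 0.05 apart (median), against 0.10 over all named elements, and the orientations lay 0.12 from their mean in both.

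Proteins at the rim of the exit tunnel, where the new chain meets chaperones and the signal recognition particle, showed the family order. All 6 measured rim genes had liver and mammary gland below every depot, beside 35 of the 45 members and 19.7% of all named genes. RPL35, a docking site for factors that receive the new chain, stood at -1.44 ± 0.17 in liver, -1.20 ± 0.31 in mammary gland, 0.17 ± 0.01 in mesenteric, -0.06 ± 0.03 in omental and -0.47 ± 0.08 in subcutaneous adipose tissue. The ± does not cover its 2 elements, which read -0.35 and 0.68 in mesenteric and -0.66 and 0.53 in omental adipose tissue. RPL23A, its neighbour and the contact of the signal recognition particle, stood at -0.94 ± 0.11, -1.14 ± 0.20, 0.31 ± 0.20, -0.05 ± 0.06 and -0.32 ± 0.15 in the same order. For both genes, all liver and mammary arrays lay below all adipose arrays.

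RPL22, an RNA-binding protein of the same region, read -1.20 ± 0.37 in liver and -1.37 ± 0.00 in mammary gland, against -0.10 ± 0.20, -0.57 ± 0.03 and -0.42 ± 0.04 in mesenteric, omental and subcutaneous adipose tissue. RPL39, a very small protein that lines the tunnel, read -1.77 ± 0.40 and -1.71 ± 0.04 against -0.57 ± 0.27, -0.87 ± 0.15 and -0.10 ± 0.13. It was the member with the lowest liver value, and its subcutaneous value lay above both visceral ones. RPL31 and RPL19 had smaller ranges, 0.85 and 0.82 log2 units over the 5 tissues.

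The acidic stalk, which recruits elongation factors, was measured through RPLP1 and RPLP2. RPLP2 stood at -1.14 ± 0.04 in liver and -0.96 ± 0.11 in mammary gland, at -0.04 ± 0.19 in mesenteric and -0.07 ± 0.01 in omental, and at -0.72 ± 0.02 in subcutaneous adipose tissue. The subcutaneous sample was thus nearer to liver and mammary gland than to the visceral depots for this gene. RPLP1, its partner in the stalk, ranged over only 0.40 log2 units, from -0.41 ± 0.14 in liver to -0.01 ± 0.19 in mesenteric adipose tissue. Its orientations lay 0.40 from their mean in mammary gland, as far as its whole range.

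RPL3, RPL10 and RPL8, proteins around the peptidyl transferase centre, formed no planned list. They ranged over 0.69, 0.56 and 0.33 log2 units, below the member median of 0.90. Elsewhere in the subunit RPL14, RPL23 and RPL29 ranged over 0.69, 0.67 and 0.67, much as RPL3. RPL3, which reaches into the catalytic centre, read -1.05 ± 0.01 in liver, -1.21 ± 0.07 in mammary gland, -0.53 ± 0.03 in mesenteric, -0.72 ± 0.01 in omental and -0.67 ± 0.05 in subcutaneous adipose tissue. Its errors were the smallest set in the family, with no orientation further than 0.07 from the mean. RPL10, which joins the subunit late, read -0.62 ± 0.08 and -0.66 ± 0.01 in liver and mammary gland, -0.10 ± 0.02 and -0.30 ± 0.08 in mesenteric and omental, and -0.60 ± 0.01 in subcutaneous adipose tissue. RPL8, another protein of the catalytic centre, differed little between tissues, from -0.998 ± 0.09 in liver to -0.67 ± 0.11 in subcutaneous adipose tissue.

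Among the other large subunit proteins RPL35A had a wide range. It stood at -1.49 ± 0.12 in liver and -1.53 ± 0.31 in mammary gland, -0.03 ± 0.00 in mesenteric, -0.48 ± 0.27 in omental and -0.05 ± 0.12 in subcutaneous adipose tissue. Liver and mammary gland were thus low to a like extent, and mesenteric and subcutaneous adipose tissue were near the reference. RPL32 and RPL34 had their lowest value in mammary gland, at -1.36 ± 0.14 and -1.32 ± 0.50, against -0.91 ± 0.17 and -0.63 ± 0.20 in liver. RPL6, RPL14, RPL23, RPL27 and RPL29 followed the family order with ranges from 0.67 to 1.17 log2 units. RPL13A, RPL18 and RPL38 spanned 0.96, 0.78 and 0.73.

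On the small subunit, RPS20 and RPS18, proteins of the head, had the lowest mammary values of the 45 genes. RPS20 stood at -1.57 ± 0.04 in liver and -1.996 ± 0.18 in mammary gland, against -0.68 ± 0.06, -0.81 ± 0.06 and -0.95 ± 0.15 in mesenteric, omental and subcutaneous adipose tissue. RPS18 stood at -1.40 ± 0.53 and -1.90 ± 0.02 against -0.66 ± 0.26, -0.79 ± 0.18 and -0.82 ± 0.15. The liver value of RPS18 carries the largest orientation error of any member.

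RPS3A, on the solvent side of the platform, was low in liver (-1.15 ± 0.48) and less so in mammary gland (-0.65 ± 0.06), and lay above the reference in mesenteric (0.26 ± 0.16) and near it in omental adipose tissue (0.05 ± 0.15). RPS7 and RPS21 followed the family order, with liver at -1.47 ± 0.22 and -1.37 ± 0.09 and mammary gland at -1.06 ± 0.24 and -1.43 ± 0.24. RPS3, at the entry of the messenger channel, spanned 0.58 log2 units with 2 elements that agreed within 0.10. RPS14 and RPS10 spanned 0.43 and 0.53.

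**Figure D2:**
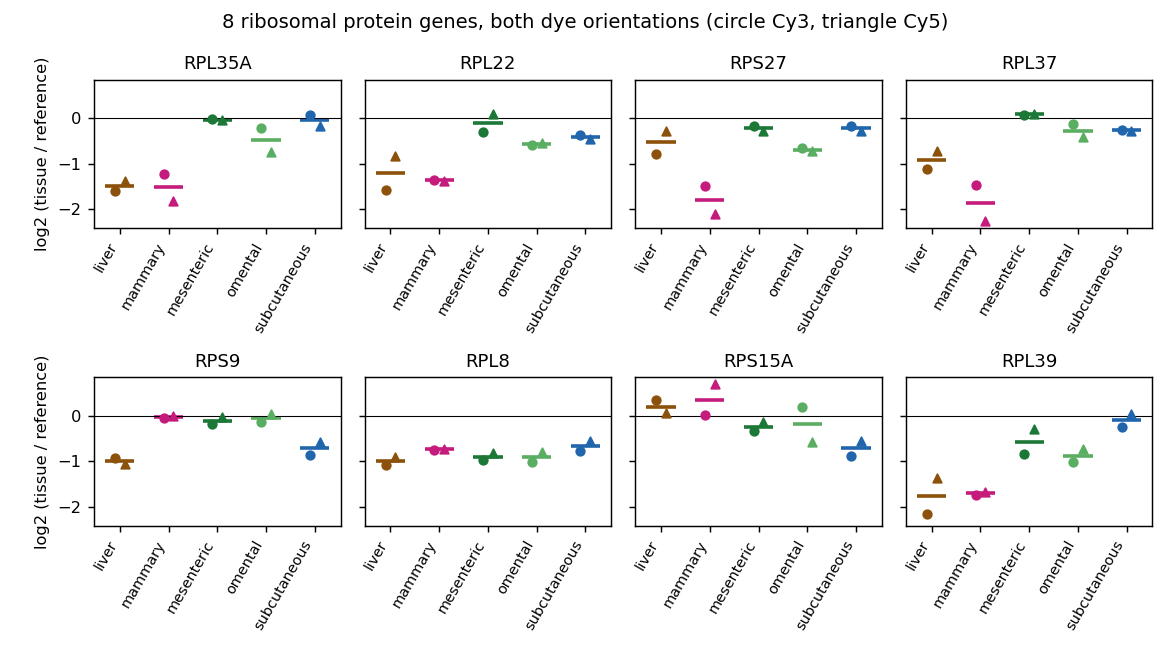
Centred log2 ratio of tissue over reference for 8 ribosomal protein genes in the 5 tissues, with the array that carried the tissue in Cy3 as a circle, the Cy5 array as a triangle and their mean as a bar. RPL35A, RPL22 and RPL39 are low in liver and mammary gland, RPS27 and RPL37 are lowest in mammary gland, RPS9 is low in liver and subcutaneous adipose tissue, RPL8 is level, and RPS15A runs the other way.

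A group of 4 genes, picked after their values were seen, stood low in mammary gland relative to liver: RPS27, RPS29, RPL37 and RPL37A. All of them encode very small ribosomal proteins that bind zinc. This trait is background, and it was known along with the values when the group was set apart. The group has no sharp edge, since RPL34 followed at 0.69 ± 0.29 in liver minus mammary gland. RPL39, also very small, stood at -0.06 ± 0.37 there. RPS27 read -0.53 ± 0.25 in liver and -1.81 ± 0.31 in mammary gland, and -0.22 ± 0.05, -0.70 ± 0.03 and -0.22 ± 0.06 in mesenteric, omental and subcutaneous adipose tissue. RPL37 read -0.92 ± 0.20 and -1.87 ± 0.40 against 0.09 ± 0.02, -0.27 ± 0.14 and -0.27 ± 0.02. Both mammary arrays were the lowest for each of these genes. The mean of liver lay between mammary gland and the depots, except for RPS27, where it lay above the omental mean.

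RPL37A stood at -0.80 ± 0.25 in liver, where its arrays overlapped those of subcutaneous adipose tissue, and at -1.66 ± 0.38 in mammary gland, and RPS29 at -0.87 ± 0.18 and -1.63 ± 0.16. These 4 genes were the 4 highest members in liver minus mammary gland, from 0.75 to 1.28, which follows from how they were picked. The other 41 had a median of 0.04 and ran from -0.97 to 0.69. Their orientations differed in size: without the Cy5 arrays none of the 4 reached 2-fold between liver and mammary gland, and without the Cy3 arrays all 4 did. In liver minus visceral adipose tissue their median was -0.56, beside -0.57 for the other 41.

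Several members did not share the family profile. RPS9, which lines the messenger entry and affects decoding accuracy, stood at -0.99 ± 0.06 in liver and -0.71 ± 0.15 in subcutaneous adipose tissue, but at -0.03 ± 0.03 in mammary gland, -0.10 ± 0.08 in mesenteric and -0.04 ± 0.10 in omental adipose tissue. Both liver and both subcutaneous arrays lay below the other 6. RPS2, its neighbour at the entry, ranged from -0.89 ± 0.43 in mammary gland to -0.53 ± 0.37 in subcutaneous adipose tissue, no wider than its orientation error. RPS16, which reaches toward the tRNA, read -1.03 ± 0.51 in liver and -0.54 ± 0.19 in mammary gland, against -0.44 ± 0.13 to -0.62 ± 0.07 in the depots.

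RPS15A ran opposite to the family, at 0.21 ± 0.14 in liver, 0.37 ± 0.34 in mammary gland, -0.24 ± 0.10 in mesenteric, -0.19 ± 0.39 in omental and -0.72 ± 0.17 in subcutaneous adipose tissue. Its profile correlated at -0.84 with the median of the other members. Its duplicate spots lay 0.25 apart (median), the widest gap in the family, and it has 1 element. Its name rests on the rebuilt print layout alone, and whether that element holds RPS15A was not tested. RPL28 was low in all tissues and nearly level (-1.15 ± 0.11 in mammary gland to -0.73 ± 0.06 in subcutaneous adipose tissue), and RPL7A was level too, over 0.29 log2 units.

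The pair of genes that are no proteins of the mature ribosome also stood apart. RPL7L1 read -0.65 ± 0.11 in liver and -0.88 to -0.89 in mammary gland and both visceral depots, the narrowest range of the family at 0.23 log2 units. RPS19BP1 was highest in subcutaneous (0.03 ± 0.20) and lowest in mesenteric adipose tissue (-0.67 ± 0.14). Their profiles correlated at -0.31 and -0.17 with the median of the other members. Leaving both out moved no median difference given here by more than 0.03.

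Of the 9 genes with 2 elements, 6 had elements at most 0.41 log2 units apart in every tissue: RPL27, RPL3, RPL34, RPL6, RPL8 and RPS3. The elements of RPL35 agreed in direction between liver and the depots, but 1 read 0.68 and 0.53 in mesenteric and omental adipose tissue and the other -0.35 and -0.66. Both elements of RPS24 were lowest in liver and highest in mesenteric adipose tissue but differed in size, with liver at -1.51 and -0.43 and mammary gland at -1.42 and -0.16. The elements of RPL15 disagreed in pattern: 1 was lowest in liver (-0.77) and highest in mesenteric adipose tissue (0.31), and the other was high in subcutaneous adipose tissue (0.69) and liver (0.27). Whether both carry RPL15 was not tested, and the mean of the pair is what counts among the exceptions to the family order. A cDNA spot can also bind messages of near-identical copies, such as processed pseudogenes and close paralogues, so each value may hold more than 1 gene.

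Set against the visceral depots, liver had lower ribosomal protein messages in most members. The median of the 45 differences was -0.57 (1.49-fold), at -0.68 with the tissue in Cy3 and -0.43 in Cy5, while the median of all named genes was -0.03. In liver 41 genes were lower and 4 higher (RPS15A, RPS19BP1, RPL7L1 and RPS2), and 38 were lower in both orientations. Passing were 6 as lower (5.96% of all named genes) and 0 as higher (7.41%). They were RPL35 at -1.50 ± 0.15 (2 elements, which disagreed as described), RPS3A at -1.31 ± 0.32, RPL35A at -1.24 ± 0.25, RPLP2 at -1.09 ± 0.06, RPL23A at -1.07 ± 0.04 and RPL39 at -1.05 ± 0.20. RPL35, RPL23A and RPLP2 reached 2-fold in each orientation alone.

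The shift was carried by both subunits, with a median of -0.58 over the large and -0.51 over the small subunit. The 6 tunnel rim genes had a median of -0.96 with 3 passing, and 2 of 11 genes mutated in Diamond-Blackfan anaemia, a ribosome disease, passed (RPL35 and RPL35A, beside 5.96% of all named genes), with the list median at -0.57 as in the family. The elements of RPL35 differed in size here, at -0.58 and -2.41. After quantile normalisation the family median was -0.39 and 3 genes passed: RPL35, RPL35A and RPS3A. Of the other lists, the 7 fibroblast and matrix markers had a median of -3.46, with 6 passing as lower in liver, and the 5 adipocyte markers -1.16 with 3 passing, and their part in the ribosomal protein result was not tested.

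Mammary gland differed from the visceral depots by a like amount. The median was -0.59 (1.51-fold), at -0.56 with the tissue in Cy3 and -0.71 in Cy5, against -0.02 over all named genes, and 40 of the 45 genes were lower. The 6 tunnel rim genes had a median of -1.01 with 3 passing. Passing in all were 12 as lower (6.30% of all named genes) and 0 as higher (3.29%). RPL37 differed by -1.78 ± 0.34, RPL37A by -1.46 ± 0.28, RPS27 by -1.36 ± 0.27, RPL35A by -1.28 ± 0.17 and RPL23A by -1.27 ± 0.27. RPS29, RPL35 and RPS20 followed at -1.26 ± 0.18, -1.25 ± 0.33 and -1.25 ± 0.18, then RPL32 at -1.19 ± 0.23, RPS18 at -1.18 ± 0.24, RPL34 at -1.15 ± 0.29 and RPL22 at -1.03 ± 0.12. The elements of RPL35 differed in size here too, at -0.80 and -1.71.

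Of these 12, 6 reached 2-fold in each orientation alone: RPL35A, RPL37, RPL37A, RPS20, RPS27 and RPS29. The count was 7 after quantile normalisation, with a family median of -0.40, and 6 without the Cy5 arrays. The members nearest to 0 were RPL7L1 (0.00 ± 0.17), RPS16 (-0.02 ± 0.03), RPLP1 (-0.04 ± 0.23) and RPS9 (0.05 ± 0.06), and RPS15A was the highest at 0.58 ± 0.48. The liver and mammary comparisons share the visceral samples, so their likeness is no separate result. Of the fibroblast and matrix markers all 7 passed as lower in mammary gland (median -3.26) and of the myeloid markers 8 of 16 (median -1.01). So did 4 of 5 adipocyte markers (median -1.56) and 3 of 4 endothelial markers (median -1.20), and the part of these lists in the ribosomal protein result was not tested.

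**Figure D3:**
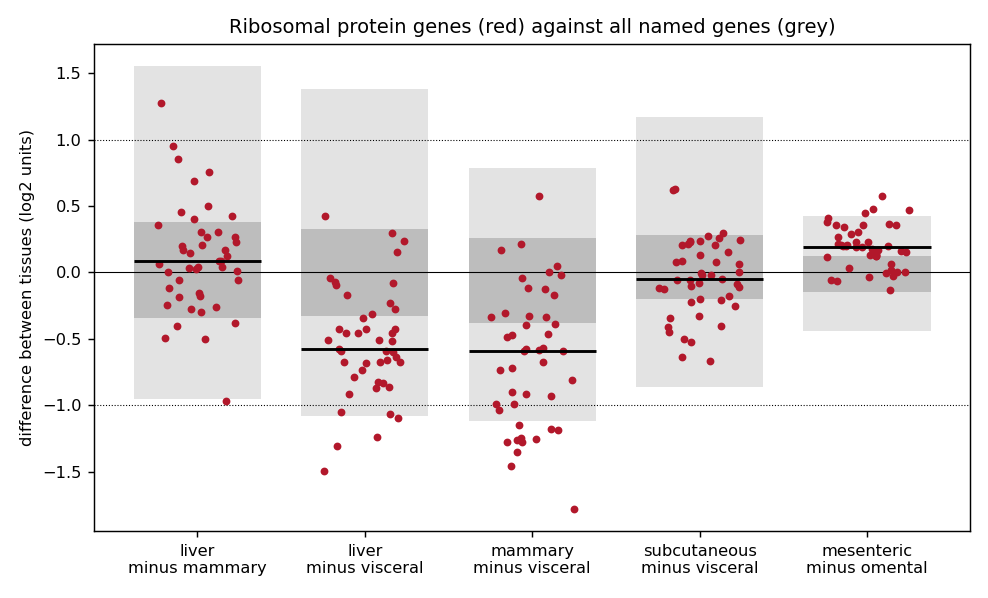
Differences between tissues in log2 units for the 45 ribosomal protein genes (red points, black bar at their median), over all named genes (light grey between percentiles 5 and 95, dark grey between the quartiles), in 5 comparisons, with dotted lines at 2-fold. The red points lie mostly below 0 in liver and mammary gland against visceral adipose tissue, with medians of -0.57 and -0.59, mostly above 0 in mesenteric minus omental adipose tissue (0.19), and on both sides of 0 in the other comparisons.

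Liver and mammary gland, compared directly, showed no common shift. The median was 0.08 with the orientations on opposite sides of 0, -0.11 in Cy3 and 0.26 in Cy5, and 23 of the 45 genes had signs that disagreed between orientations. Without centring the median was -0.13, beside -0.22 over all named genes. RPS27, at 1.28 ± 0.56, was the only gene to pass as higher in liver (9.34% of all named genes), and none passed as lower (4.44%), where RPS9 came closest at -0.97 ± 0.09. RPL37 (0.95 ± 0.60), RPL37A (0.85 ± 0.63) and RPS29 (0.75 ± 0.34) followed RPS27, and RPS3A (-0.50 ± 0.42) and RPS16 (-0.49 ± 0.32) followed RPS9. RPS27 did not pass without the Cy5 arrays, and without the Cy3 arrays 6 genes did: RPL37, RPL37A, RPS18, RPS27 and RPS29 as higher and RPS9 as lower.

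Subcutaneous and visceral adipose tissue differed little in ribosomal protein messages, while leukocyte messages differed widely. The family median was -0.05, with 26 genes lower and 19 higher, and no gene passed as higher (6.23% of all named genes) or lower (3.72%). The extremes were RPS19BP1 at 0.63 and RPL39 at 0.62 on the high side, and RPLP2 at -0.67 and RPS9 at -0.64 on the low side. RPL35 stood at -0.52, RPS15A at -0.50 and RPL23A at -0.45. In the same comparison 12 of 16 myeloid markers passed as higher in the subcutaneous sample (median 2.88) and 4 of 7 lymphocyte markers (median 1.63). Of the myeloid markers C1QC passed as lower (-1.38), beside C1QA at -0.68 and C1QB at -0.85. Of the adipocyte markers 3 of 5 (median -1.52) and of the endothelial markers 3 of 4 (median -1.21) passed as lower. Without centring the family median was 0.58, beside 0.64 over all named genes.

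Mesenteric adipose tissue carried slightly more ribosomal protein message than omental. The median was 0.19 (1.14-fold), with 0.13 in Cy3 and 0.25 in Cy5, and 39 of the 45 genes were higher, where 47.6% of all named genes were. None passed as higher (0.829% of all named genes) or lower (0.576%). Few genes of any kind passed in this comparison, 36 of 4340 as higher and 25 as lower. RPS25 was highest at 0.57 ± 0.09, before RPS27 at 0.48 ± 0.02 and RPL22 at 0.47 ± 0.17, and RPS19BP1 lowest at -0.13 ± 0.13, before RPS9 at -0.06 and RPS15A at -0.05. Without centring the family median was -0.12, beside -0.33 over all named genes, so the direction was seen only relative to the array median. The labels of the Cy5 omental array give the reference both dyes in different fields, and without that array the median was 0.13.

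In bulk tissue, fewer cells of a type and less RNA per cell cannot be told apart. A centred ratio also sets a message against the median spot of the array, and gives neither its share among all messages nor its amount per cell. A ratio to the reference does not rank the abundance of 1 gene against another.

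Against the visceral depots, the other lists of translation genes had medians nearer to 0 than the family in both liver and mammary gland. Of 13 further messages with a TOP motif, 6 had liver and mammary gland below all depots, beside 19.7% of all named genes. So had 11 of 25 initiation factors, a list that shares EIF3E, EIF3F, EIF3H, EIF3K, EIF3L and EIF4B with the TOP list. The median of the TOP messages was -0.32 in liver minus visceral and -0.53 in mammary minus visceral adipose tissue. In the latter 1 of 13 passed, the initiation factor EIF4B at -1.45 ± 0.02, a share near the 6.30% of all named genes that passed as lower. NACA, EEF1B2 and BTF3 stood at -0.84 ± 0.19, -0.84 ± 0.15 and -0.79 ± 0.17 without passing, and 3 of the 13 lay above 0: PABPC1 (0.54), EIF3F (0.35) and EEF1D (0.01), named after their values were seen. Of 5 elongation factors 0 passed in any of the 5 comparisons.

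Of 25 initiation factors EIF5 passed as higher in liver than in visceral adipose tissue (1.07 ± 0.18), and the median was -0.21. EIF5 stood at 0.77 ± 0.12 in liver and 0.31 ± 0.07 in mesenteric but -0.91 ± 0.52 in omental adipose tissue. Its pass thus rests mainly on the omental sample. Ribosome biogenesis factors, which build the particle in the nucleolus, had 0 of 27 genes past the rule in any comparison, with medians from -0.10 to 0.08. The 38 mitochondrial ribosomal proteins, which serve another ribosome, had medians of 0.17 in liver minus visceral and -0.07 in mammary minus visceral adipose tissue, with MRPL24 (1.48 ± 0.07) and MRPS17 (1.17 ± 0.32) passing as higher in liver. These counts, 1 of 25 and 2 of 38, are no larger a share than the 7.41% of all named genes that passed as higher in liver. The 6 aminoacyl-tRNA synthetases, which charge tRNA, had medians of 0.13 and 0.07. No difference between these lists and the ribosomal proteins was tested.

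**Figure D4:**
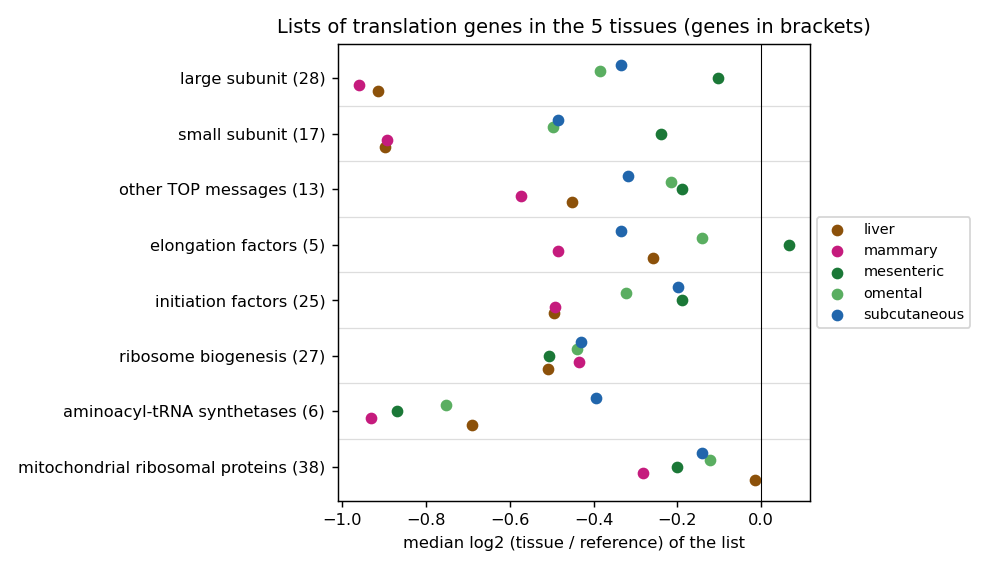
Median centred log2 ratio of tissue over reference for 8 lists of translation genes (rows, number of genes in brackets) in the 5 tissues (coloured points). The TOP list shares genes with the elongation list, and EIF3E, EIF3F, EIF3H, EIF3K, EIF3L and EIF4B with the initiation list. EIF6 is in both the initiation and the biogenesis list. Liver and mammary gland separate from the 3 depots in both ribosomal subunit lists, at -0.89 to -0.96 against -0.10 to -0.50. Initiation factors have the same order at smaller size, at -0.50 and -0.49 against -0.19 to -0.32. The other TOP messages, in part the same genes, have it too, at -0.45 and -0.57 against -0.19 to -0.32. The points of the biogenesis list lie between -0.43 and -0.51.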

How the data were processed

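The design text names a ScanArray 4000 scanner and GenePix 4.0 for the 10 arrays. The authors deposited 1 value a spot, read here as a log2 dye ratio: 94 values share a ceiling of 16.61, a round linear ratio only for base 2. How the authors corrected background and normalised was not found in the labels. Missing entries numbered 2402. Ceiling values were set missing, the sign was turned on the 5 arrays whose tissue carried Cy3, each array was centred on its median, and duplicate spots and then elements of a gene were averaged.

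Identifiers at face value gave a mean cosine of -0.01 between elements of 1 gene. Of 12 table layouts paired with 3072 annotation layouts through 384-well plates, the best gave 0.47 over 1289 pairs and the next different one 0.14. Names were used on 20 of 22 plates, since 13 pairs on the last plates gave -0.10. Of 5472 named elements 5467 matched RefSeq (ARS-UCD2.0) for current symbols. No coordinates or sequences are given.

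Every member could be named. Comparisons name all members past the size rule, or the 3 highest and lowest, and ranges the widest and narrowest. The plan set up to 10 a direction, which the 12 in mammary minus visceral adipose tissue exceed. It set up to 4 genes of each other list, and more are named for the adipocyte, TOP and initiation lists. Members, lists and layout were chosen with earlier results of these data known. The layout search and the size rule were tested on simulated data. Python 3.11.15, NumPy 2.4.6 and pandas 2.3.3 were used. Alternatives covered centring, normalisation, each dye orientation, ceiling values, elements, plates, layout, thresholds and the omental Cy5 array. The number of arrays limits the precision, and channel intensities were not analysed here.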

Additional observations from a re-analysis of the deposited data

How the results depend on the processing

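No paired analysis was possible because the numbered arrays of a tissue are dye orientations of 1 RNA sample. The liver minus visceral and mammary minus visceral medians stayed below 0 under every alternative tried. After quantile normalisation these were -0.39 and -0.40, with 3 and 7 genes past the rule, and the subcutaneous minus visceral median was -0.11. Without centring the mammary minus visceral median was -0.42, the subcutaneous minus visceral median 0.58 with 2 genes past the rule, the mesenteric minus omental median -0.12, and the liver minus mammary count 2. The median of all named genes was then -0.22 in liver minus mammary, -0.07 in liver minus visceral, 0.14 in mammary minus visceral, 0.64 in subcutaneous minus visceral and -0.33 in mesenteric minus omental. With a threshold of 1.5-fold the counts were 6 in liver minus mammary, 22 in liver minus visceral, 23 in mammary minus visceral and 4 in subcutaneous minus visceral. With 2-fold asked of each orientation they were 0, 3, 6 and 0. Leaving out either dye orientation gave medians of -0.71 to -0.56 in mammary minus visceral, -0.68 to -0.43 in liver minus visceral and -0.03 to 0.027 in subcutaneous minus visceral. The counts then ran from 0 to 6 in liver minus mammary, 6 to 17 in mammary minus visceral and 4 to 9 in liver minus visceral. No share of all named genes is given beside the counts past the rule under alternatives, here or above. Those counts show only how far the member counts moved. Without the omental Cy5 array the subcutaneous minus visceral median was -0.10. The cause of these changes was not tested. Leaving out RPL7L1 and RPS19BP1 was added after seeing the data. The other alternatives kept each median within the distance between orientations and each count within 1.5 times.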

Other observations

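Among genes outside the family, the 10 whose values over the 10 arrays correlated best with the median of the ribosomal protein genes were AP2B1 (0.96), EIF3H (0.96), CEP85L (0.95), MACF1 (0.94), ZSCAN21 (0.94), PPIF (0.93), HMGB1 (0.93), CNOT2 (0.93), PRR5 (0.93) and S100A10 (0.92). The arrays of a tissue share RNA, so these values describe 5 samples. AP2B1, a subunit of the clathrin adaptor complex, stood at -0.96 in liver, -1.05 in mammary gland, -0.20 in mesenteric, -0.39 in omental and -0.31 in subcutaneous adipose tissue. EIF3H, a subunit of the initiation factor that binds the small subunit, stood at -1.01, -1.08, -0.19, -0.40 and -0.47. S100A10, a partner of annexin A2, showed a wider separation, at -2.25 and -2.47 in liver and mammary gland and at -0.08, 0.13 and -0.37 in the depots. MACF1, a cytoskeletal linker, also had liver and mammary gland below the depots but lay above the reference, at 0.01 and 0.15 in liver and mammary gland and 0.54 to 0.74 in the depots.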
